A study of Mus musculus with 21 samples.

Results

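The comparison described here is between C2C12 cells on the day differentiation began (day 0) and the same cells 1 day later in control medium, both wild type (WT) for Setd2. It rests on 4 of the 20 H3K36me3 libraries with a peak list, 2 for each day, chosen by their labels. C2C12 is an established mouse myoblast line that leaves the cell cycle and fuses into muscle fibres in culture. Chromatin was fixed, sheared and precipitated with an antibody against histone H3 trimethylated at lysine 36 (H3K36me3), and the recovered DNA was sequenced from 1 end. The labels give no composition of the medium, and they do not say whether the 2 libraries of a group came from separate cultures. Every p-value below therefore measures only spread between libraries, which may be technical. For the gene-by-gene tests that spread is pooled over all 10 WT libraries, of which these 4 are a part. The other libraries came from WT cells at day 1 under methionine restriction, from WT cells at day 5 in both media, and from 2 Setd2 knockout (KO) lines.

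H3K36me3 is laid down by SETD2, which travels with elongating RNA polymerase II, so the mark lies over the bodies of transcribed genes and is thin near the start site. In myoblasts, MYOD1 and MYF5 set muscle identity, and myogenin (MYOG) drives the later step in which cells stop dividing and switch on the contractile apparatus. Notch ligands and their targets act between neighbouring myoblasts and hold part of the population back from that step. The measure used throughout is cover, the percent of a gene body that lies inside the merged peaks of 1 library. Cover records the extent of the called peaks along a gene. It does not measure the height of the mark, and a gene marked in more of the cells cannot be told apart from one marked more densely in each cell. The 19300 protein-coding genes whose bodies span 2 kb or more were scored.

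Myogenin and skeletal actin were the clearest cases of a gene that carried no peak on day 0 and was largely covered on day 1. Their promoters are shown because both genes, with the acetylcholine receptor subunit gene Chrng and the Notch ligand gene Dll1, were called with more cover at day 1. E-boxes, the CANNTG sites that MYOD1 and myogenin can bind, are in capitals and the rest is in lower case. The sequences are from RefSeq on GRCm38.p6, 300 bases around each start, written 5′ to 3′ along the gene. They lie at chr1:134289754-134290053 on the plus strand for Myog, chr8:123894726-123895025 on the minus strand for Acta1, chr1:87205561-87205860 on the plus strand for Chrng and chr17:15376883-15377182 on the minus strand for the upstream of the 2 Dll1 promoters in the table. The other Dll1 promoter, at chr17:15375774-15376073, is not shown and holds 1 E-box, CATTTG.
Myog: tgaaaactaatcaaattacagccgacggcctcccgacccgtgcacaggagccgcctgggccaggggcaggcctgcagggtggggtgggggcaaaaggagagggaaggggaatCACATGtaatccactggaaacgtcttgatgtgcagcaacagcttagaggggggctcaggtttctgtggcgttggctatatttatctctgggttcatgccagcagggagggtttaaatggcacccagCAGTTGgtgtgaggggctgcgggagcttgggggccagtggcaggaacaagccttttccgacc
Acta1: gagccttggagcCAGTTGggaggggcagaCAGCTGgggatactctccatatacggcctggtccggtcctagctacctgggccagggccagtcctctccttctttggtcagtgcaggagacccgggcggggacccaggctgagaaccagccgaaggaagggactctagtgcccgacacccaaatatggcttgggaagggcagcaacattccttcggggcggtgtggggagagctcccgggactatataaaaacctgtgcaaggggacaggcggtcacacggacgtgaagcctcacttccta
Chrng: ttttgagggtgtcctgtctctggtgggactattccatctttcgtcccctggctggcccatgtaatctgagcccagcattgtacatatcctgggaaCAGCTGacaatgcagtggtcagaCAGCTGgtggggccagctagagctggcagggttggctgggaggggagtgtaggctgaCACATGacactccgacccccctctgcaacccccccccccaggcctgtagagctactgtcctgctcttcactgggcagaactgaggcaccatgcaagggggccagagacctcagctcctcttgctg
Dll1: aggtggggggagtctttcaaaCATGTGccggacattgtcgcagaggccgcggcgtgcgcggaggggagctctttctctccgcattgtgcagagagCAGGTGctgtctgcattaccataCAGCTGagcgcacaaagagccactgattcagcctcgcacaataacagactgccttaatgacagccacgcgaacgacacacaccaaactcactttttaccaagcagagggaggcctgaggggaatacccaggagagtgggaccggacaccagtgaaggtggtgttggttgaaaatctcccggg

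An E-box of any kind says little on its own, since 72.3% of the 32851 promoters in the table hold at least 1 CANNTG when both strands are read. The form CAGCTG, which is its own reverse complement, was in 16.3% of all promoters. It was in 28 of the 82 promoters (34.1%) of the genes called with more cover, which have 68 of their 92 genes in the table, and in 15.4% of those of the genes called with less. The 49 promoters of the sarcomere list held it in 18 cases (36.7%), and the 25 promoters of the excitation list in 12 (48.0%). CAGCTG is one of the CANNTG forms, so the counts overlap, and a match is a description of the letters, not a bound site.

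Peaks covered 179 and 159 Mb in the day 0 libraries and 140.2 and 150.2 Mb in the day 1 libraries. Both day 1 libraries lay below both day 0 libraries, with means of 169 ± 13.7 Mb and 145 ± 7.07 Mb (SD, n = 2), a difference of -23.7 Mb. The number of genes with at least 50% cover, called marked genes below, was 5460 and 5036 on day 0 and 4263 and 4539 on day 1, a difference of -847. For both measures the exact permutation test, two-sided, gave p = 0.333, the smallest that 2 libraries against 2 allow. The lists held 73037 and 86381 peaks on day 0 and 79690 and 75936 on day 1, so peak numbers overlapped between days while peaks of 10 kb or more numbered 3666 and 2442 against 1841 and 2371. Read depth is unknown for peak lists, and its part in the shorter day 1 lists was not tested. Within each list 94.7% to 95.2% of the covered bases were in annotated gene bodies.

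**Figure D1:**
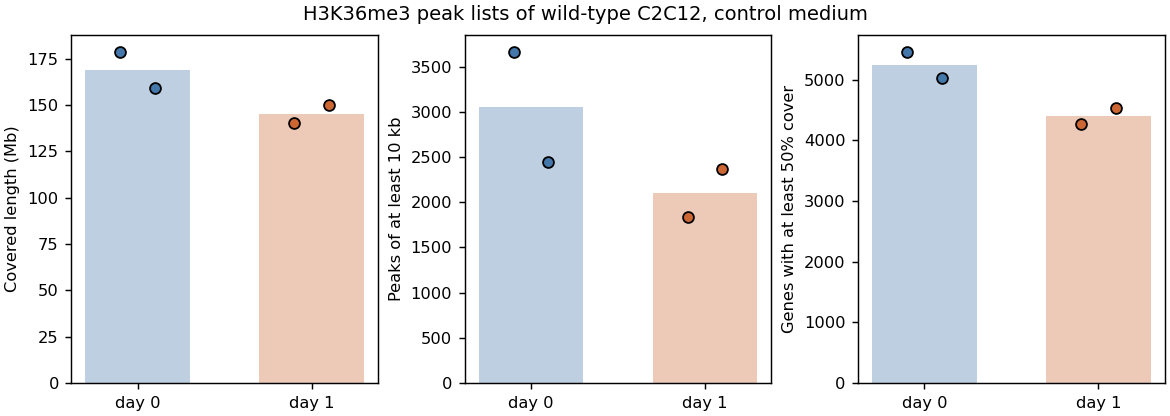
Covered length in Mb, number of peaks of at least 10 kb and number of marked genes, for each of the 4 libraries (points) with the mean of each day (bars from 0). The day 1 libraries, at 140.2 and 150.2 Mb, sit below the day 0 libraries at 179 and 159 Mb, and the marked genes likewise.

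The territory was largely shared. The intersection of 2 libraries over their union was 0.697 for the day 0 pair, 0.694 for the day 1 pair and 0.656 to 0.693 for pairs of 1 library from each day. Both day 0 libraries shared 139 Mb, both day 1 libraries 119 Mb, and all 4 libraries 105 Mb. Of the genes marked in both libraries of a day, 3915 were marked in all 4 libraries, 401 were marked in both day 0 libraries and neither day 1 library, and 39 the reverse. Markers of the labelled cell type were covered, since 6 of 8 myoblast genes were marked in at least 1 library, with a summed cover of 463% to 483% that overlapped between days. All 5 endothelial markers were at 0, 6 of 7 adipocyte markers were at 0 and all 6 fibroblast markers were under 5% in every library. Of the other lists, 4 of 6 osteoblast, 3 of 4 macrophage, 4 of 5 neuron and 1 of 5 smooth muscle markers were at 0. Against that, 1 osteoblast, 1 neuron and 2 smooth muscle markers were marked in at least 1 library. Summed cover of the neuron genes was 62.2% to 64.3%. Summed cover on day 0 and day 1 was 116% to 124% and 96.5% to 102% for osteoblast genes, and 129% to 142% and 104% to 115% for smooth muscle genes, and its part in the differences below was not tested.

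Of 9512 genes whose cover averaged 5% or more over the WT libraries, 629 differed between the days at an adjusted p under 0.05 (limma on the 10 WT libraries, Benjamini-Hochberg), which is 6.61% of those tested. More cover at day 1 was called for 92 genes (0.967%) and less for 537 (5.65%), and the 2 libraries of each day did not overlap for any of the 629. Such separation alone is common here, since 49.3% of all tested genes had both day 1 values below both day 0 values and 5.71% had both above. The median difference over all tested genes was -5.30 points of cover, which goes with the shorter day 1 lists. The balance of calls therefore depends on the scale: with each library centred on its own median the calls were 225 more (2.37%) and 108 less (1.14%), the median difference being 3.17 points, and with every list cut to the length of the shortest WT list they were 83 (0.997%) and 113 (1.36%) of 8327. The latter setting, called equal-length lists below, kept the peaks of each list with the highest fold until the list reached 109.9 Mb, and its median difference over all tested genes was -1.48 points. A difference of 0 in that setting can mean that the peaks of a gene were all cut, not that its cover was equal. Centring added the same 8.48 points to every gene, so it turned the median of each gene list below except DNA replication positive or more positive while leaving the distance to the other genes as it was; list medians are therefore given as measured and with equal-length lists, beside -5.30 and -1.48 over all tested genes. Keeping only peaks whose −log10 q reached 3 gave 42 calls with more cover (0.514%) and 770 with less (9.41%) of 8179 genes, and list counts that this moved by over 1.5 times are given with the list. Of the 97 called genes in the lists or named, 31 of 89 with a value kept the call with equal-length lists and 58 of 89 where −log10 q reached 3. In both settings and without each of the 4 libraries in turn, 18 kept it, among them Myog, Acta1, Dll1, Heyl, Ryr1, Ccdc141, Rgma and Pdk1 with more cover and Pdk4, Smad7, Shfl, Mgp and Arl4c with less. The fit of the 4 libraries alone called 0 genes with limma, with 1897 at an unadjusted p under 0.05, so every call below uses the spread estimated over all 5 WT groups, and in simulated data that fit made false calls for this contrast at several times its nominal rate.

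**Figure D2:**
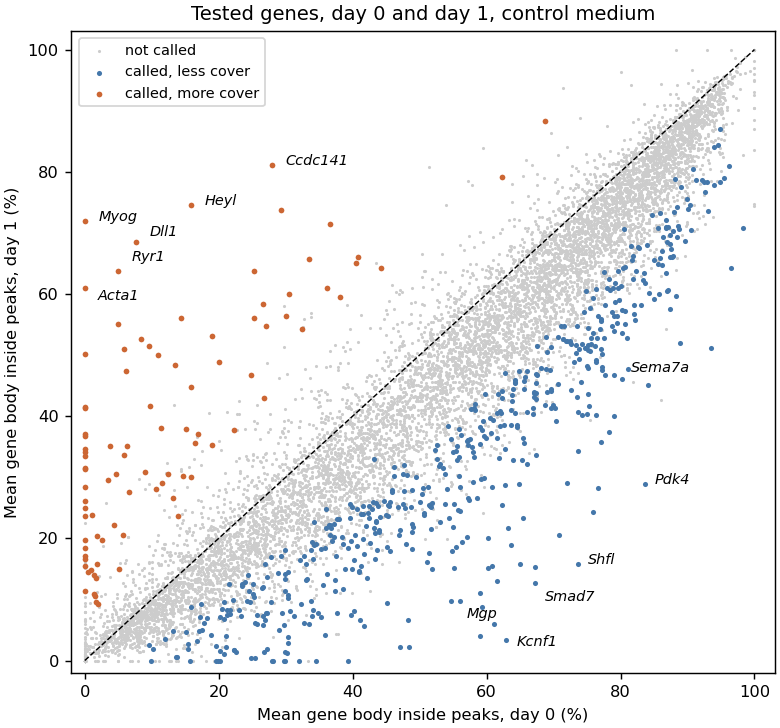
Mean cover of each tested gene on day 0 (x axis, percent) and day 1 (y axis, percent); grey points are genes not called, orange points genes called with more cover and blue points genes called with less, and the dashed line marks equal cover. Most points lie just below the line, while Myog and Acta1 rise from 0 and Kcnf1 and Mgp drop to near 0.

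Among the regulators of myogenesis, Myog showed the largest difference of all tested genes. Myog (chr1:134290004-134292548) was listed at 0 in both day 0 libraries and had 70.6% and 73.2% cover on day 1. Each day 1 library held 1 peak there, of 1797 and 1862 bases, over most of the 2.545 kb gene. Cover rose by 71.9 points (SE 3.16, limma adjusted p = 7.5e-05). The gene for MYOD1, which acts upstream of myogenin, had 55.1% and 50.1% on day 0 and 67.7% and 50.2% on day 1, a difference of 6.36 points that was not called (adjusted p = 0.555). The list of 31 myogenic regulators had 18 tested members, of which Myog rose, Twist2 and Eya1 fell and 15 were not called (5.56% and 11.1%, against 0.967% and 5.65% of all tested genes). Twist2, a repressor of muscle transcription, went from 26.0% and 27.4% to 1.93% and 0.921%, but 34.1% of its body lies under another annotated gene, so its peaks may not be its own. The median difference of the list was -0.87 points, against -5.30 over all tested genes, and with equal-length lists it was 3.58 against -1.48. Neither fall could be tested with equal-length lists or where −log10 q reached 3. Id2, an inhibitor of MYOD1 that fell below the cover minimum for testing, had 23.6% and 20.1% on day 0 and was at 0 in both day 1 libraries.

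In the Notch pathway, a ligand and a target rose together with large differences. Dll1, which encodes the ligand Delta-like 1 (chr17:15367354-15376932), had 5.47% and 9.82% on day 0 and 71.5% and 65.6% on day 1. Heyl, a transcriptional repressor switched on by Notch, had 13.4% and 18.3% and then 71.3% and 77.8%. Day 1 values of both genes were far above day 0, with differences of 60.9 points for Dll1 (adjusted p = 0.000557) and 58.7 for Heyl (adjusted p = 0.000924). Jag1, which encodes another ligand, fell from 32.6% and 33.8% to 14.6% and 12.1%, although with equal-length lists its difference was 0.227 points and the call was lost without replicate 1 of day 0 or either day 1 library. Hey1, the relative of Heyl, had 33.2% and 26.2% against 72.8% and 43.3%, higher in both day 1 libraries but not called (adjusted p = 0.0742). The receptor genes Notch1, Notch2 and Notch3 were covered by 71.2% or more of their bodies in every library and were not called. Of 33 pathway genes 23 were tested, 2 rose (8.70% against 0.967%) and 1 fell (4.35% against 5.65%), and the median difference was -2.53 points, or 1.89 with equal-length lists. Of 21 genes tested where −log10 q reached 3, 3 rose and limma called 0 with less cover.

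The contractile apparatus was the list with the most genes called with more cover, as measured and after centring. With equal-length lists it tied with the excitation and calcium list, and where −log10 q reached 3 the Notch list had more. Of 46 tested sarcomere genes (52 in the list) 11 rose, 23.9% against 0.967% of all tested genes, and none fell by limma. Of the 46, 28 were at 0 in both day 0 libraries, against 128 of all 9512 tested genes. Genes at 0 on day 0 could not fall, and they passed the minimum in mean cover only through other WT libraries. The 23.9% and the absence of falls are therefore in part set by that filter. The median difference was 3.58 points, and 0.175 with equal-length lists, where 4 of 40 rose, against 0.997% of all tested genes. Where −log10 q reached 3, 2 of 41 rose (4.88% against 0.514%) and the median was 0. Acta1, the gene of skeletal muscle actin (chr8:123891758-123894775), was at 0 in both day 0 libraries and at 66.1% and 55.8% on day 1, a difference of 61.0 points (SE 7.61, limma adjusted p = 0.00491). Actc1, the gene of cardiac actin that immature skeletal muscle also uses, went from 0 in both libraries to 25.4% and 48.8%. The slow troponin T gene Tnnt1 went from 0 to 44.5% and 38.6%, and the embryonic myosin heavy chain gene Myh3 from 0 to 29.8% and 22.4%. In these 4 genes every day 1 value was above 20% where day 0 had no peak.

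Further sarcomere genes that rose were Myl1, Mylpf, Tnnt3, Mybph, Myom2, Ldb3 and Klhl41. Ldb3, which encodes a Z-disc protein, had peaks already on day 0, at 32.2% and 34.9%, and had 68.5% and 63.0% on day 1. Klhl41 started at 2.83% and 2.18% and reached 23.2% and 16.1%. Both days of each gene were apart. With equal-length lists the differences of Tnnt1, Actc1 and Myh3 were 22.3, 12.7 and 4.66 points and not called, and Mylpf and Klhl41 had a difference of 0. The call of Actc1 was also lost without either day 0 library or without replicate 2 of day 1, where the difference was 25.4 points, and those of Klhl41, Myl1 and Tnnt3 when any 1 of the 4 libraries was left out. Acta1, Mylpf, Tnnt1, Mybph and Myom2, 5 of the 11, kept the call without each library in turn. In Mylpf, Tnnt3 and Mybph, 25.9% to 45.9% of the body lies under another annotated gene. Titin (Ttn), the giant spring protein of the sarcomere, had 81.5% and 61.2% on day 0 and 92.8% and 94.5% on day 1, and was not called (adjusted p = 0.0554). Nebulin (Neb), the ruler of the thin filament, had 0.849% and 0.700% against 8.94% and 9.80% and was not called (adjusted p = 0.156), although its mean on day 5 was 95.4%. Of the 46 genes, 28 were at 0 in both day 0 libraries, and 14 of those had cover in both day 1 libraries while 11 stayed at 0 in both. Over all tested genes at 0 on day 0, these included, 42 of 128 had cover in both day 1 libraries.

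Genes of excitation and calcium release also rose. Ryr1, which encodes the calcium release channel of the sarcoplasmic reticulum (chr7:29003340-29125179), had 3.57% and 6.44% on day 0 and 65.3% and 62.4% on day 1. Over its 121.84 kb the number of peaks was 10 and 14 on day 0 and 40 and 45 on day 1. The rise was 58.8 points (SE 3.52, limma adjusted p = 0.000319), and the libraries of a day differed from each other by far less. Atp2a1, the gene of the pump that returns calcium to the reticulum, had 26.4% and 24.2% and then 68.6% and 59.0%. Chrng, which encodes the fetal gamma subunit of the acetylcholine receptor, went from 0 in both libraries to 26.6% and 30.3%. Jsrp1 and Tmem38a, both coding for proteins of the sarcoplasmic reticulum, rose by 25.9 and 24.99 points. With equal-length lists the day 1 peaks of Chrng were cut, which left it at 0 on both days. Atp2a1 differed there by 24.0 points, Jsrp1 by 10.1 and Tmem38a by 10.98, and none of these genes was called. The call of Tmem38a was lost when any 1 of the 4 libraries was left out, that of Jsrp1 without replicate 1 of day 0 or either day 1 library, and Ryr1, Atp2a1 and Chrng kept theirs. Rapsn, the gene of the protein that clusters these receptors, fell from 58.4% and 65.2% to 40.0% and 26.1%, but its whole body lies under other annotated genes, and the call was lost without replicate 2 of either day. In all, 28 of 35 genes were tested, 5 rose (17.9% against 0.967% of all tested genes) and 1 fell (3.57% against 5.65%), with a median difference of 1.12 points that was 9.498 with equal-length lists. In that setting 4 of 26 rose (15.4% against 0.997%) and limma called 0 with less cover. Chrnd, a receptor gene not called in the main fit, was among the 4. Of 25 genes tested where −log10 q reached 3, 2 rose and 1 fell.

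Of the genes for fusion and adhesion, the fusion protein gene Mymk went from 0 in both day 0 libraries to 26.8% and 46.9%, a rise of 36.8 points (limma adjusted p = 0.0109). With equal-length lists its day 1 peaks were cut, which left it at 0 on both days. Kirrel, the gene of an adhesion protein, fell from 86.3% and 87.6% to 58.6% and 62.3%, and Jam2 from 74.0% and 65.7% to 37.7% and 46.0%, both calls being lost without either day 1 library and that of Jam2 also without replicate 1 of day 0. With 17 of 24 genes tested, 1 rose (5.88% against 0.967%) and 2 fell (11.8% against 5.65%). The median was -5.32 points, and -0.985 with equal-length lists, where limma called 0 of 15. Where −log10 q reached 3, 5 of 14 fell (35.7% against 9.41%) and limma called 0 with more cover.

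**Figure D3:**
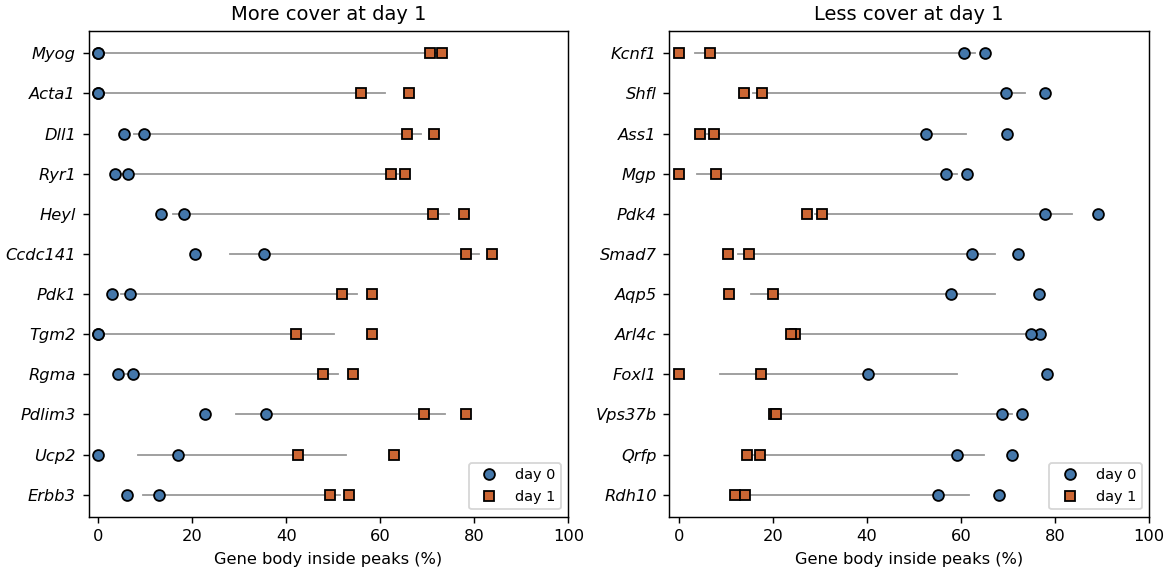
Cover in percent in each of the 4 libraries (points, coloured by day) for the 12 genes with the largest called rise and the 12 with the largest called fall, a grey line joining the means of the 2 days. The genes were chosen so that the 2 libraries of a day lie apart from those of the other day. They run from Myog at 0 and 70.6% to 73.2% down to Kcnf1 at 60.7% to 65.2% and 0 to 6.72%.

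The remaining genes among the 12 with the largest rise belong to several kinds of protein. Ccdc141, which encodes a coiled-coil protein, had 35.2% and 20.7% and then 78.3% and 83.8%. Tgm2, the gene of a protein-crosslinking transglutaminase, went from 0 in both libraries to 58.2% and 42.1%. Erbb3, which encodes a neuregulin receptor, had 6.16% and 12.9% and then 49.4% and 53.4%. Pdlim3, Ucp2 and Rgma, coding for a Z-disc protein, a mitochondrial carrier and a BMP co-receptor, rose by 44.4, 44.2 and 45.1 points, and 30.1% of Rgma lies under another annotated gene. Ucp2 had unlike values within a day, 0 and 16.9% and then 42.4% and 62.9%. The choice of these 6 genes required both day 1 libraries to lie above both day 0 libraries. With equal-length lists the differences of Tgm2, Ucp2 and Erbb3 were 6.84, 13.4 and 20.4 points and not called, and the call of Ucp2 was also lost without replicate 1 of day 0 or replicate 2 of day 1.

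Energy metabolism showed a pair of related kinases in opposite directions. Pdk1 and Pdk4 encode pyruvate dehydrogenase kinases, which restrain entry of pyruvate into the citric acid cycle. Pdk1 had 6.83% and 3.01% on day 0 and 51.9% and 58.2% on day 1, a rise of 50.1 points (limma adjusted p = 0.00132). Pdk4 had 89.2% and 78.0% and then 27.2% and 30.5%, a difference of -54.7 points (adjusted p = 0.00127). On Pdk4 the widest peak was 12764 and 5212 bases in the day 0 libraries and 1456 and 3587 bases in the day 1 libraries. Hexokinase 2 (Hk2), the first enzyme of glycolysis, fell from 59.0% and 60.6% to 43.3% and 43.8%, a call lost when any 1 of the 4 libraries was left out. Across 27 tested genes of 32 the median difference was 0.300 points, with 1 rise (3.70% against 0.967%) and 2 falls (7.41% against 5.65%). With equal-length lists the median was again 0.300, with 2 rises (8% against 0.997%) and 1 fall (4% against 1.36%) among 25 genes.

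**Figure D4:**
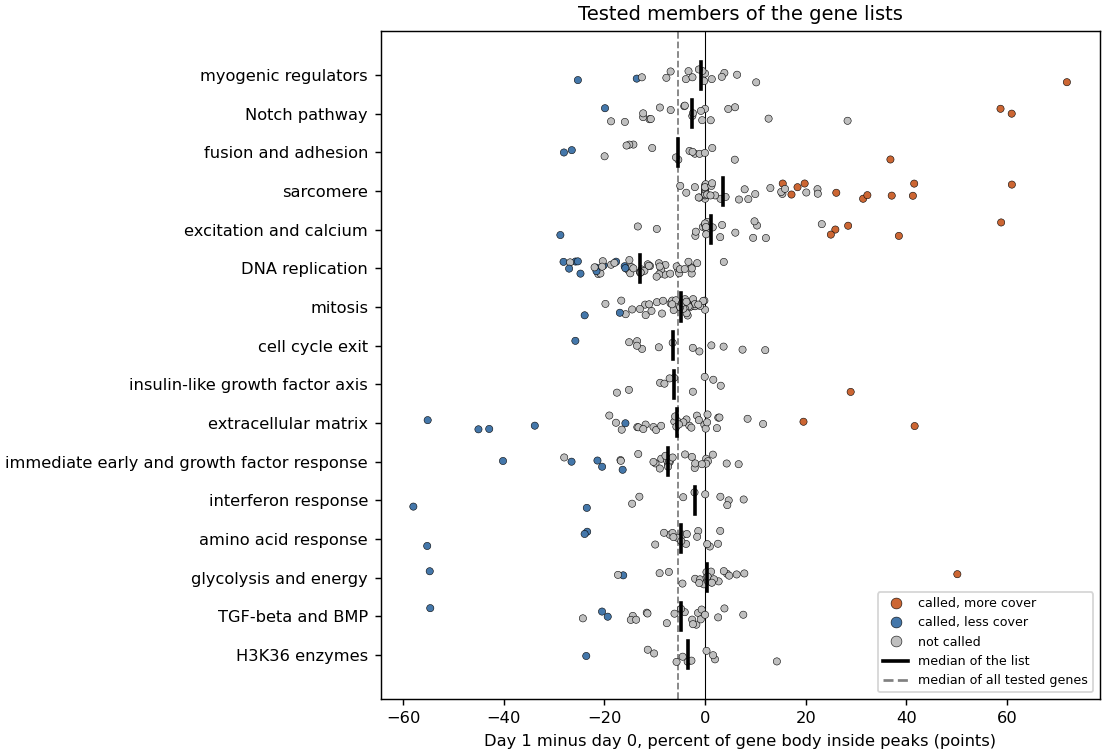
Difference in cover, day 1 minus day 0 in points, for the tested members of the gene lists (points), coloured by call and spread vertically for legibility, with list medians (black bars) and the median over all 9512 tested genes (dashed line). The sarcomere list has a median of 3.58 and the DNA replication list one of -12.9, against -5.30 over all genes.

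DNA replication was the list with the lowest median. Of 51 tested genes (53 in the list) 11 fell, 21.6% against 5.65% of all tested genes, none rose by limma, and the median difference was -12.9 points. Its median stayed negative after centring (-4.38, with 2 falls, 3.92% against 1.14%) and with equal-length lists (-10.4, with 7 falls, 14.3% against 1.36%). The 11 genes were Mcm10, Cdc45, Gins1, Gins3 and Gins4, which load or form the replicative helicase, Pole, Rfc5 and Pcna, which form the polymerase, its clamp loader and its clamp, the origin kinase gene Cdc7, the chromatin assembly gene Chaf1b and the repair gene Brca1. Gins1 fell furthest, from 38.9% and 31.6% to 10.02% and 4.32%, with a difference of -28.1 points (SE 2.98, limma adjusted p = 0.00232) that was -3.97 with equal-length lists. Cdc45 had 85.8% and 85.6% and then 64.5% and 55.4%, and Pcna 78.6% and 67.9% and then 54.5% and 49.0%. Both genes still had cover of 49.0% or more on day 1. Of the 11 falls, Gins1 alone was still called without each of the 4 libraries in turn. The other 10 lost the call without replicate 1 of day 0, and also without either day 1 library. Brca1 differed by 3.64 points in the other direction with equal-length lists. Cdc6, which loads the helicase, had 93.9% and 91.4% against 63.4% and 79.4% and was not called (adjusted p = 0.0911).

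E2F factors are textbook regulators of replication genes, and the letters TTTCGCGC or TTTGGCGC of their sites, read on both strands, were in 13 of the 52 promoters of the replication list and in 0.813% of all promoters. Of the 11 genes that fell, 8 have a promoter in the table and 0 of these hold either form. The mitosis list, with 44 genes tested of 44, had 2 falls (4.55% against 5.65%), Mybl2 and the kinetochore gene Spc24. Mybl2, a transcription factor of dividing cells, went from 77.7% and 79.7% to 59.1% and 50.4%. The list's median was -4.80 points against -5.30 over all genes, and with equal-length lists -4.70 against -1.48, with 1 fall. Spc24 lost its call without replicate 2 of day 0 or either day 1 library and Mybl2 without replicate 2 of day 1, so that limma called 0 of the 44 genes without replicate 2 of day 1. Where −log10 q reached 3, 6 of 44 fell (13.6% against 9.41%). Of 13 tested cell cycle exit genes in a list of 20, Cdk6, the gene of a G1 kinase, fell from 52.0% and 42.1% to 20.03% and 22.5% while Cdkn1a, the gene of the inhibitor p21, had 52.2% and 59.8% against 69.4% and 66.5% and was not called (adjusted p = 0.259). The fall of Cdk6 was the 1 call of the list (7.69% against 5.65%), and with equal-length lists it was -10.8 points and not called (adjusted p = 0.0516). The median of that list was -6.43 points, and -2.43 with equal-length lists.

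Genes of the serum and growth factor response were among those that lost cover. Myc, which encodes a growth-promoting transcription factor, had 60.7% and 59.7% on day 0 and 19.4% and 20.8% on day 1, a difference of -40.1 points (SE 6.74, limma adjusted p = 0.0138). Egr2, Egr3, Dusp5 and Hbegf also fell, by 16.4 to 26.5 points, and Jun had nearly the same cover in all 4 libraries (69.2% to 73.6%). Egr3 differed by 0.406 points in the other direction with equal-length lists. Of 31 tested genes in a list of 36, 5 fell (16.1% against 5.65% of all tested genes) and none rose by limma, and the median was -7.39 points, and -6.10 with equal-length lists. After centring 1 fell (3.23% against 1.14%) and with equal-length lists 3 of 28 (10.7% against 1.36%). Without replicate 1 of day 1 all 5 calls were lost, without its replicate 2 all but 1, and without replicate 1 or 2 of day 0 there were 2 and 3.

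Signals of the TGF-beta family and the matrix changed at single genes. Smad7, the inhibitor that this pathway induces against itself, had 62.4% and 72.2% and then 14.9% and 10.4%, a difference of -54.6 points (SE 4.51, limma adjusted p = 0.00109). Inhba and Ltbp1, coding for an activin subunit and a protein that stores latent TGF-beta, fell by 19.3 and 20.5 points, and 70.1% of Inhba lies under another gene. Both calls were lost without replicate 1 of day 0 or either day 1 library, while Smad7 kept its own. The list had 23 of 29 genes tested, 3 falls (13.04% against 5.65%) and a median of -4.77 points, or -1.39 with equal-length lists. Where −log10 q reached 3, 5 of 21 fell (23.8% against 9.41%). Mgp, the gene of matrix Gla protein, which inhibits calcification, had 61.4% and 56.8% and then 7.94% and 0, and Ccn2, a matricellular protein gene, 50.6% and 69.7% and then 9.99% and 20.2%. Col6a1 and Col5a3, both collagen genes, rose, Col6a1 from 9.24% and 19.6% to 72.4% and 39.7% and Col5a3 from 66.0% and 71.4% to 87.4% and 89.2%. Col6a1 was not called without replicate 1 of day 0 or of day 1, Col5a3 not without replicate 1 of day 0 or either day 1 library, and Ccn2 not without either day 1 library. Of 37 tested matrix genes in a list of 45, 2 rose (5.41% against 0.967%) and 5 fell (13.5% against 5.65%), among the latter Timp1 and Timp3, whose bodies lie wholly under other genes, and the median was -5.53 points, or -2.94 with equal-length lists, where 1 of 30 rose and 2 fell. Where −log10 q reached 3, limma called 0 of 31 with more cover and 4 with less.

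Amino acid and interferon genes gave a few large falls. Ass1, the gene of argininosuccinate synthase, which makes the precursor of arginine, had 52.6% and 69.7% and then 4.50% and 7.44%, a difference of -55.2 points (SE 5.67, limma adjusted p = 0.00213) that was -16.4 and not called with equal-length lists. Asns, the gene of asparagine synthetase, fell by 23.4 points and Slc7a1, which encodes a cationic amino acid transporter, fell by 23.9. These were the 3 falls among 19 tested of 24 (15.8% against 5.65%), with a median of -4.72 points. With equal-length lists the median was -3.81 and 0 of 16 were called by limma. Ass1 kept its call without each of the 4 libraries in turn, Slc7a1 lost it without replicate 1 of day 0 or either day 1 library, and Asns without replicate 1 of day 1. Shfl, an interferon-induced gene, had 77.8% and 69.5% and then 13.8% and 17.6%, with a difference of -57.9 points (limma adjusted p = 0.00180). With B2m, whose body lies wholly under another gene, it made 2 falls among 11 tested of 27 (18.2% against 5.65%), and most of the untested interferon genes were at 0. B2m lost its call when any 1 of the 4 libraries was left out, after centring, with equal-length lists and where −log10 q reached 3, leaving Shfl as the 1 fall of the list. The interferon median was -2.10 points, or -1.03 with equal-length lists.

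The largest fall was in Kcnf1, which encodes a modifier subunit of potassium channels (chr12:17172100-17176888), from 60.7% and 65.2% to 6.72% and 0, a difference of -59.6 points (SE 4.09, limma adjusted p = 0.000463). Where −log10 q had to reach 3 its difference was -32.6 points and not called. Arl4c, the gene of a small GTPase, had 76.8% and 74.8% and then 24.7% and 23.9%. Rdh10, the gene of a retinol dehydrogenase, had 68.2% and 55.0% and then 11.9% and 14.1%. The choice of both genes required that the days did not overlap. Vps37b, Qrfp, Aqp5 and Foxl1 completed the 12 largest falls, with differences of -50.3, -49.1, -51.8 and -50.5 points. Aqp5 lies wholly under another gene, and Foxl1 had unlike day 0 values of 40.3% and 78.2%. Without either day 1 library the calls of Foxl1, Qrfp and Rdh10 were lost, and with equal-length lists Rdh10, Vps37b, Aqp5 and Qrfp differed by -2.22, -9.06, -30.2 and -35.4 points without a call.

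For the insulin-like growth factor axis, Igf2r, the receptor gene that clears IGF2, rose from 20.6% and 19.3% to 46.4% and 51.4%, 1 rise among 11 tested of 18 (9.09% against 0.967%), and 32.5% of its body lies under another gene. The median was -6.13 points, or -1.56 with equal-length lists, where 1 of 10 rose and 1 fell. Keeping peaks whose −log10 q reached 3 gave 2 falls among 10 genes, and limma called 0 with more cover. Among the 11 enzymes that write or remove methylation at H3K36, Smyd2 fell from 63.8% and 71.0% to 45.2% and 42.5%, the 1 call of the list (9.09% against 5.65%). It was called neither after centring nor with equal-length lists (-16.6 points), and not without either day 1 library. Setd2 itself had 78.1% and 65.6% against 62.4% and 69.9%, with overlapping days and no call (adjusted p = 0.532). The median of these enzymes was -3.45 points, or -0.192 with equal-length lists.

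Beyond single lists, 16 genes were at 0 in both day 0 libraries and had at least 20% cover in both day 1 libraries. They were Myog, Acta1, Tgm2, Tnnt1, Mybph, Actc1, Mymk, Hjv, Enho, Rbm24, Trim72, Myom2, Chrng, Myh3, Tmem38a and Apobec2, of which Hjv, Enho, Rbm24, Trim72 and Apobec2 are in no list and were chosen here after their values were seen, while Tgm2, also in no list, is among the 12 largest rises. Rbm24, which encodes a splicing factor of muscle, had 30.3% and 36.5% on day 1, and Trim72, a gene for membrane repair in muscle, 39.3% and 23.8%. The reverse held for 9 genes, Foxf2, H2-T23, Dctpp1, Slc16a11, Foxc2, Kbtbd8, Renbp, Gm10277 and Id2. Foxf2 and Foxc2, both forkhead factor genes, had 28.2% and 50.5%, and 37.8% and 21.8%, on day 0. Among all tested genes, 128 were at 0 in both day 0 libraries and 42 of those had cover in both day 1 libraries.

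Base by base, 13556 stretches totalling 2.63 Mb lay inside peaks of both day 1 libraries and of neither day 0 library, and 47788 totalling 11.2 Mb the reverse. Taken at 1 kb or more, 156 regions were gained (0.230 Mb) and 612 lost (0.792 Mb). The balance turned with equal-length lists, to 1544 regions gained and 1160 regions lost, and both numbers moved by over 1.5 times under each setting tried. The longest gained region was 4081 bases in Ccdc141 (chr2:77146565-77150645), followed by 3959 bases in Rgma (chr7:73413251-73417209) and 3435 bases in Ryr1 (chr7:29075354-29078788). Ryr1 held 20 gained regions with 31.4 kb in all, Ccdc141 18 with 30.6 kb and Dync1i1, which encodes a dynein chain, 10 with 16.5 kb. The longest lost region was 3663 bases in Smad7, followed by 3460 bases in Epha2 (chr4:141302790-141306249), the gene of an ephrin receptor. By gene, Ank, which encodes a pyrophosphate transporter, lost 16.7 kb in 12 regions, Cald1, the gene of caldesmon, 15.6 kb in 11, and Ass1 and Smad7 8.74 and 8.57 kb. These genes were chosen by the length of their regions, after the values were seen.

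The called genes were of similar length to the rest, with medians of 19.2 kb for those that rose, 25.3 kb for those that fell and 22.6 kb over all tested genes. Of the 92 that rose, 22 were at 0 on day 0, and their median cover was 6.42% on day 0 and 36.2% on day 1. The 537 that fell had medians of 57.7% and 30.0%, and 12 were at 0 on day 1. A minimum in mean cover over all WT libraries lets a gene listed at 0 on day 0 be tested only where it is covered later, so these counts describe the genes that passed.

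Along the gene body, cover was lowest at the 5′ end on both days. The profile used 6338 tested genes with a known strand and less than 10% of their body under another gene, each cut into 10 equal parts. Mean cover on day 0 was 10.6% in the first part and 72.0% in the ninth, and the day 1 means were lower by 3.31 to 7.84 points in every part. In the 56 such genes that rose, the difference was 6.29 points in the first part and 38.9 in the seventh. In the 341 that fell, it was -9.60 points in the first part and -26.8 in the fourth. The choice of these genes by their cover fixes the sign of the last 2 profiles, so only their shape along the gene is described.

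**Figure D5:**
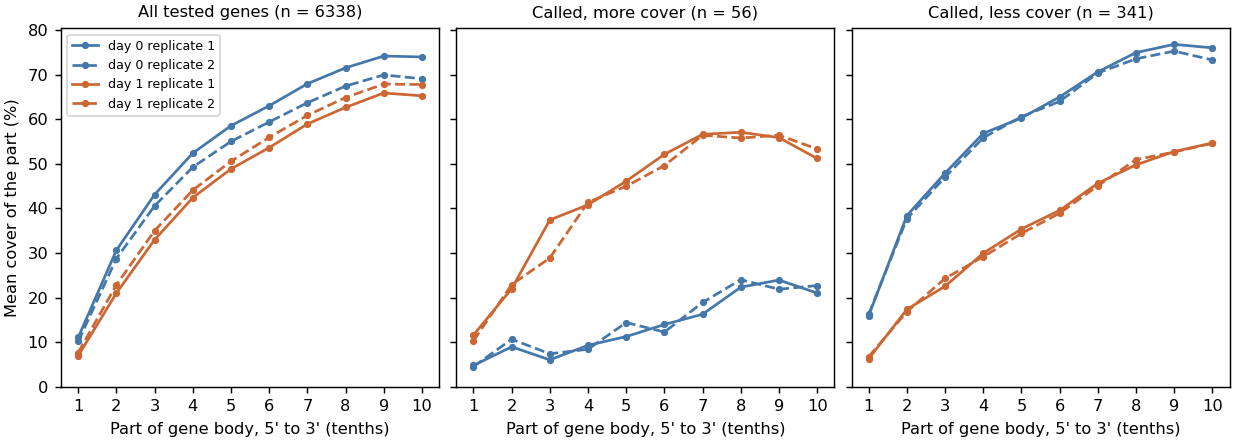
Mean cover in percent in 10 equal parts of the gene body from the 5′ end to the 3′ end, 1 line for each library of day 0 (blue) and day 1 (orange), in 6338 tested genes, the 56 called with more cover and the 341 called with less. Over all genes the day 0 mean climbs from 10.6% to 72.0%, and in the genes that rose the days are furthest apart in part 7 (38.9 points).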

How the data were processed

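The authors deposited 1 broad-peak list per library, called library by library; the peak caller and aligner are not given in the sources used here, and the build is GRCm38 per the submitters' processing notes. Fold enrichment per peak is the authors' ratio and served only to rank a list's own peaks. Per peak, a −log10 p and a −log10 q were deposited, of which the q set a stricter threshold. The deposited score was left aside. Drosophila chromatin was added as a spike-in, per the labels' protocols, but the values here are not scaled by it. Overlapping peaks of a library were merged over the autosomes and sex chromosomes, and cover was taken over RefSeq gene bodies (GRCm38.p6) of at least 2 kb.

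Cover was fitted with limma 3.58.1 in R 4.3.3 (trend, robust) over 10 WT libraries in 5 groups, for genes with a mean of at least 5%, with Benjamini-Hochberg adjustment and a threshold of 0.05. Other counts used Python 3.11.15. In data simulated with the real spread this fit made false calls at several times its nominal rate for the day 0 contrast, and the fit of 4 libraries recovered no changed gene. The members and lists were chosen with earlier results of these data known. Named genes were the 12 with the largest called, non-overlapping difference in each direction, plus list members. Replicates 1 and 2 share numbers across groups, but the labels name no common batch, so the main fit has no block. Depth is unknown, so no counting interval is given. The input and 6 KO lists were not used here.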

Additional observations from a re-analysis of the deposited data

Results flagged for a closer look

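The Setd2 KO lists enter no comparison above, and they were searched for cover at day 1 in control medium above that of the same line at day 0, over the 24 genes with the largest differences. Dll1 had 32.1% cover in KO line 1 at day 1 and was at 0 at day 0. Arl4c had 27.6% in line 1 at day 1 against 14.2% at day 0, opposite to its fall in WT cells. Tgm2 (1.32%) and Rgma (0.608%) in line 1, and Rdh10 (1.39%) in line 2, had small cover at day 1 where day 0 was at 0. Each line has 1 library per condition, so none of these differences was tested.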

How the results depend on the processing

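The count of 629 called genes (92 more, 537 less) moved by over 1.5 times under these settings: 0 (0 and 0) with the 4 libraries alone, 135 (31 and 104) with the 6 control-medium libraries, 388 (61 and 327) with array weights, 333 (225 and 108) after median centring and 196 (113 less) with equal-length lists; keeping peaks whose −log10 q reached 3 left 42 calls with more cover. Leaving out 1 library gave 138 to 1010 calls, 32 to 98 with more cover and 102 to 912 with less. The lowest were 138 and 141 without replicate 1 or 2 of day 1, the highest 1010 without replicate 2 of day 0; without replicate 1 of day 0 there were 391, and without replicate 1 or 2 of day 5 under methionine restriction 338 and 340. The regions gained (156) and the regions lost (612) were 270 and 4803 where −log10 q reached 3, 1544 and 1160 with equal-length lists, 960 and 5015 at 500 bases or more, 0 and 0 at 5 kb, 665 and 3907 with peaks closer than 1 kb joined, and 360 to 570 and 1842 to 3805 without 1 library, a setting chosen after seeing the data. With equal-length lists Brca1 (3.64), Egr3 (0.406) and Jag1 (0.227 points) changed sign; the cause was not tested.

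With the replicate number as a block, 466 genes were called (70 more, 396 less), 446 of them shared with the fit without it. Deviations of same-numbered day 0 and day 1 libraries had r = -0.439, so the crossed pairing was added after seeing the data and called 573. The 24 genes with the largest differences kept their call under both blocks. Of the 97 called genes among the lists and the genes named, 40 kept the call without each of the 4 libraries in turn and 57 lost it without at least 1. Examples beyond those given above are Cdk6, Eya1, Timp1, Col4a2, Epha2 and Foxf2, whose calls were lost without either day 1 library, those of Asns (-21.0 points), Ldb3 (29.5), Myh3 (22.4) and Aqp5 (-47.2) without its replicate 1, and those of Igf2r (26.4) and Pdlim3 (39.97) without its replicate 2. Among the 24, with equal-length lists 14 of the 22 with a value kept it, after centring 23 of 24, and with the 4 libraries alone 0 of 24. Peak lists hold no depth, which limits any statement on the amount of the mark.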

Other observations

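Some genes called between day 0 and day 1 had returned by day 5 in control medium; they were chosen after their values were seen, and the return was not tested. Ssc5d, which encodes a secreted scavenger receptor, had mean cover of 6.18% on day 0, 47.4% on day 1 and 10.3% on day 5 (n = 2 each). Dync1i1 had 13.5%, 48.4% and 3.15%, and Vgll2, which encodes a cofactor of TEAD factors in muscle, 30.5%, 60.0% and 18.6%. In the other direction, Rdh10 had 61.6%, 13.03% and 61.7%, and Myc 60.2%, 20.1% and 50.4%. The day 1 calls of Vgll2, Rdh10 and Myc were lost without either day 1 library. Most sarcomere genes named above had their highest mean on day 5, such as Acta1 at 93.1% and Myh3 at 93.1%.

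Gdnf and Dusp4 are in none of the lists and were chosen after their values were seen. Gdnf, the gene of a glial-derived factor, had 44.7% and 51.9% on day 0 and 5.26% and 8.07% on day 1. Dusp4, which encodes a MAP kinase phosphatase, had 74.5% and 79.6% and then 36.6% and 34.96%. In both genes the days did not overlap, and limma gave adjusted p of 0.00127 and 0.00180. With equal-length lists the differences of Gdnf and Dusp4 were -12.2 and -34.0 points and not called (adjusted p = 0.488 and 0.156).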
